A study of Homo sapiens with 10 samples.

Results

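The spliceosome genes described here are the 66 probe sets, of 18569 on the array, whose gene symbol begins with SNRP, SF3A, SF3B, PRPF, LSM or SRSF or names TXNL4A, TXNL4B, U2AF1, U2AF2, EFTUD2, SNRNP200, SART1, SART3 or CD2BP2. They stand for 65 genes, because U2AF1 has 2 probe sets. Choosing by name also took LSMEM1, LSMEM2 and SNRPD2P2, which are 2 membrane protein genes and a pseudogene and belong to no spliceosome particle. RNA came from A375, an established human skin melanoma line, grown in RPMI1640 with glutamine and 10% serum. Each of the 5 control samples and 5 doxycycline samples was measured on 1 Clariom S array. The treated cells were plated with doxycycline at 2 µg/ml, and both groups were collected after 4 days. The series title names Omomyc, a dominant negative form of MYC, but the labels describe neither the construct nor a clone, and cells given the drug but lacking the construct were not analysed here. The comparison is therefore doxycycline against control, and an effect of the drug alone cannot be told apart from that of an induced protein.

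The spliceosome removes introns from pre-mRNA. It is built from small nuclear ribonucleoproteins (snRNPs), each a small RNA with a ring of Sm proteins (U1, U2, U4, U5) or Lsm proteins (U6) and its own specific proteins. U1 and U2 bind the ends of the intron, the U4/U6.U5 tri-snRNP then joins, and SR proteins help to select the exons. TXNL4A, also called DIM1 or the U5 15-kDa protein, is a small thioredoxin-fold protein of the U5 snRNP and the tri-snRNP. The array gives 1 level per probe set and does not measure splicing itself.

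With doxycycline, 32 of the 66 probe sets fell and 5 rose (limma, adjusted p under 0.05). Among all 18569 probe sets, 17.2% were called lower and 20.9% higher, 38.1% in all, whereas 48.5% of the spliceosome probe sets were lower and 7.58% higher. The median log2 fold change of doxycycline over control was -0.189 for the 66 and 0.041 for all probe sets. The members were also brighter, with a median control level of 8.01 against 5.06 for all. With probe sets under the median signal left out, 5586 of the probe sets kept were called, and 37 of 60 members, 31 lower and 6 higher. The share called among these brighter probe sets was larger than the 38.1% of all and close to that of the members. How many of the brighter probe sets were lower or higher was not counted. The part of signal level in the higher share of members called was not tested. All Sm ring genes and all Lsm ring genes measured fell, while most tri-snRNP genes among the members and the 6 SF3B-named genes did not pass the test. Outside TXNL4A the changes were about 2-fold or less. Of the 32 that fell, 9, with TXNL4A among them, did so by at least 1.5-fold, and none of the 5 that rose reached that size. Those 9 are 13.6% of the 66, against 8.54% of all probe sets. At least 2-fold lower were 3.03% of the 66 and 4.04% of all. In 26 of the 66 (39.4%) every control array was above every doxycycline array, and in 5 (7.58%) every doxycycline array was above. Among all probe sets these shares were 13.6% and 14.9%.

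**Figure D1:**
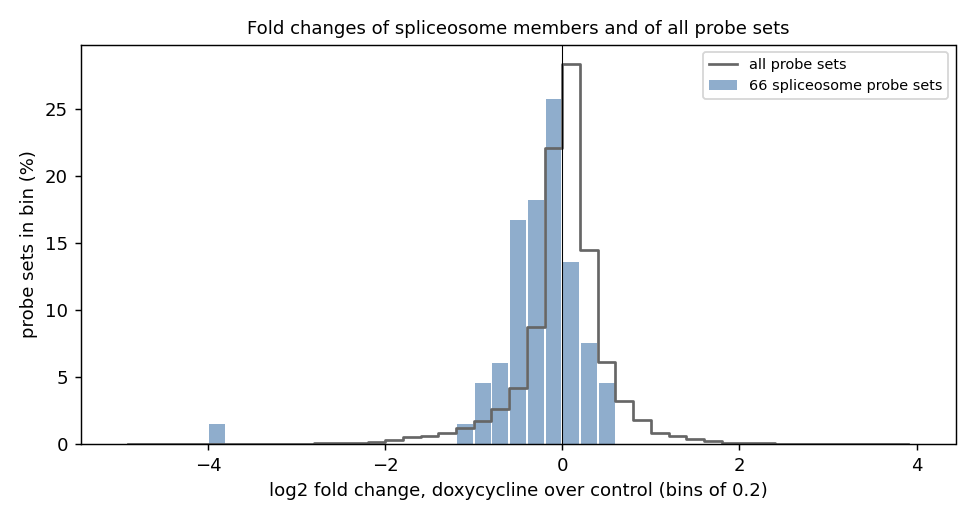
Distribution of log2 fold changes, doxycycline over control, for the 66 spliceosome probe sets (bars) and all 18569 probe sets (line), as the percent of each set in bins of 0.2. The spliceosome bars lie mostly left of 0, with a median of -0.189 against 0.041 for all, and the lone bar at the left is TXNL4A.

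Median log2 signal was 5.02 to 5.10 on the 10 arrays and first quartiles were 2.80 to 2.94, so a signal near 2.85, the 25th percentile of probe set means, is called dim here. Precision is limited by the 5 arrays per group. The residual SD of the spliceosome probe sets had a median of 0.135 log2 units, against 0.165 for all. Of the melanocyte lineage markers, SOX10, MITF and S100B were above that level, and the means of the pigment genes MLANA, PMEL, TYR and TYRP1 were below it in both groups. MITF rose from 7.12 to 8.33. Markers of other cell types also moved. With doxycycline 4 of 5 fibroblast markers were called higher, as were 1 of 5 endothelial, 2 of 5 leukocyte and 1 of 5 keratinocyte markers. The mean of the fibroblast markers was 4.02 to 4.18 on control and 4.78 to 4.96 on doxycycline arrays. It was 2.95 to 3.23 and 3.28 to 3.63 for the endothelial, 4.52 to 4.80 and 4.97 to 5.28 for the leukocyte and 2.38 to 2.66 and 2.42 to 2.64 for the keratinocyte markers. The largest rises were those of PDGFRA (4.52 to 6.16) and LUM (3.45 to 4.97) among the fibroblast markers, LYZ (6.87 to 8.31) among the leukocyte and KDR (5.70 to 6.88) among the endothelial markers. CD14, KRT5, DCN and COL1A1 were called higher by smaller amounts, and CD68 was well above background in both groups (8.84 and 9.04) without being called. PTPRC, CD3E, PECAM1, CDH5, TEK, DSG3, KRT1, KRT14 and KRT5 had means below 2.85 in both groups, and no fibroblast marker did. The part of these markers in the results was not tested.

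TXNL4A showed by far the widest gap among the members. Its log2 signal on control arrays 1 to 5 was 7.10, 7.42, 7.34, 7.12 and 7.26. On doxycycline arrays 1 to 5 it was 2.59, 3.75, 3.57, 3.02 and 3.38. The groups were thus separated by more than 3 log2 units at their nearest values, and the doxycycline arrays varied more among themselves than the control arrays did. The mean fell from 7.25 ± 0.14 to 3.26 ± 0.46 (SD, n = 5), a log2 fold change of -3.99 ± 0.18 (SE; 95% interval -4.36 to -3.61) or 15.9-fold, at a limma adjusted p of 2.94e-10. It ranked 4 from the lowest of all 18569 probe sets. On doxycycline array 1 the signal lay below that array's first quartile of 2.94, and near the background fold changes are compressed. In bulk RNA, a lower level in every cell and a loss in most of the cells cannot be told apart.

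TXNL4B, its paralogue and also a thioredoxin-fold protein linked to splicing, did not follow. Its log2 signal was 6.95, 7.23, 7.12, 7.15 and 7.20 on the control arrays and 7.17, 7.07, 7.36, 7.28 and 7.20 on the doxycycline arrays. These ranges overlapped, and the log2 fold change was 0.09 ± 0.08 (SE, n = 5 per group; 95% interval -0.09 to 0.27; limma adjusted p = 0.477). CD2BP2, the U5 52-kDa protein that binds TXNL4A in the free U5 snRNP, rose slightly. Its values were 6.38, 6.29, 6.31, 6.15 and 6.25 in control and 6.80, 6.44, 6.52, 6.39 and 6.69 with doxycycline. The lowest doxycycline array was just above the highest control array, and the log2 fold change was 0.29 ± 0.09 (SE; limma adjusted p = 0.021). That call was lost without control array 4 (adjusted p = 0.0517) and without doxycycline array 5 (adjusted p = 0.0539).

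Among the other U5 and tri-snRNP genes that the naming rule took, the test found little. Of the 12 measured besides TXNL4A, PRPF38A and PRPF38B fell, CD2BP2 rose and 9 were not called. The median log2 fold change of these 12 was -0.07. PRPF38A was put on this list although it joins with the B complex as the spliceosome is activated, and PRPF38B was listed with it. They fell by 0.28 (adjusted p = 0.00676) and 0.48 (adjusted p = 0.00369). EFTUD2, the GTPase of U5 (-0.08; 95% interval -0.29 to 0.13), and SNRNP200, the helicase that unwinds U4 from U6 (0.06; 95% interval -0.10 to 0.21), were not called. Neither were the U4/U6 proteins PRPF3 (-0.05), PRPF4 (-0.15) and PRPF31 (-0.05), the recycling factor SART3 (-0.17) or SART1 (0.25). PRPF6, which bridges U5 and U4/U6, had a log2 fold change of -0.19 ± 0.07 (SE, limma adjusted p = 0.0584) with groups that did not overlap. It passed with 5 of the other settings tried (both filters on dim probe sets, another quantile normalization, the other variance model and array weights), at adjusted p values of 0.0253 to 0.0399, and without doxycycline array 1 (adjusted p = 0.0254). PRPF8, the core scaffold of U5, was not analysed here. Tri-snRNP genes that the naming rule did not take are counted with the other snRNP genes below. Of those, PPIH (-0.70), SNRNP40 (-0.51) and SNU13 (-0.29) fell (limma adjusted p of 1.55e-05 to 0.0407). SNRNP27 (-0.11), USP39 (-0.05) and DDX23 (0.07) were not called.

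**Figure D2:**
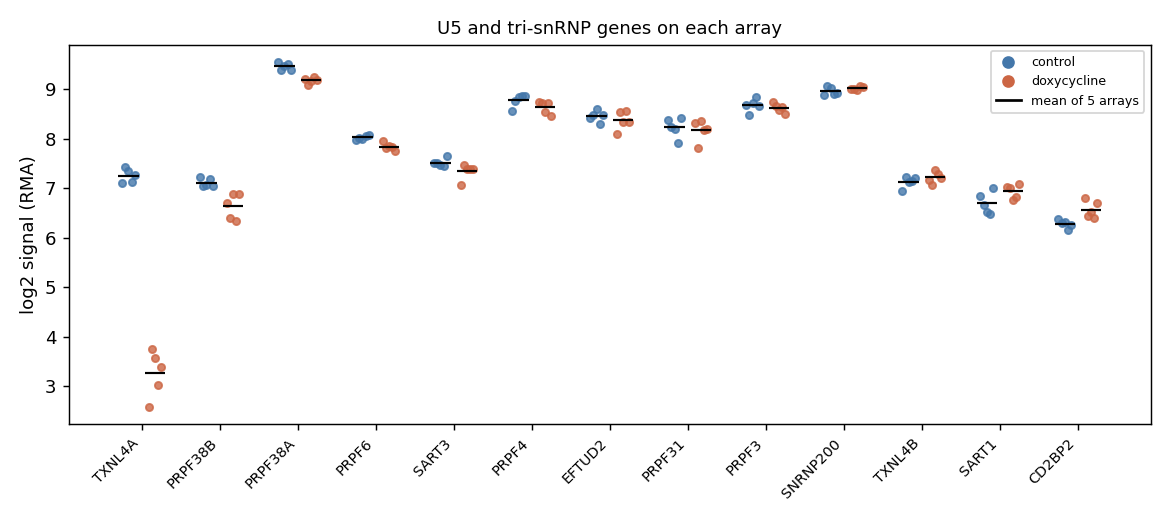
Log2 signal of the 13 U5 and tri-snRNP genes among the members on each of the 5 control and 5 doxycycline arrays, with the group mean as a line. Levels are to be compared within a gene only. TXNL4A dropped from 7.10 to 7.42 on control arrays to 2.59 to 3.75 on doxycycline arrays, and the other 12 genes moved by at most 0.48.

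None of the 6 measured genes nearest to TXNL4A on chromosome 18 fell by a like amount. In the order of the RefSeq gene table, CTDP1 (0.13), KCNG2 (0.03), SLC66A2 and HSBP1L1 (0.01) were the 4 nearest measured genes on one side, and ADNP2 (0.01) and PARD6G (-0.24) were the only 2 left on the other, towards the chromosome end. Values in brackets are log2 fold changes that did not pass the test (limma adjusted p of 0.316 to 0.971), and HSBP1L1 was dim in both groups. SLC66A2 fell by 0.36 ± 0.11 (SE, limma adjusted p = 0.021), a call lost without doxycycline array 5 (adjusted p = 0.054) and after another quantile normalization (adjusted p = 0.0525). The signs of the values of 0.01 and 0.03 are not settled, and they turned under other scalings or without single arrays.

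**Figure D3:**
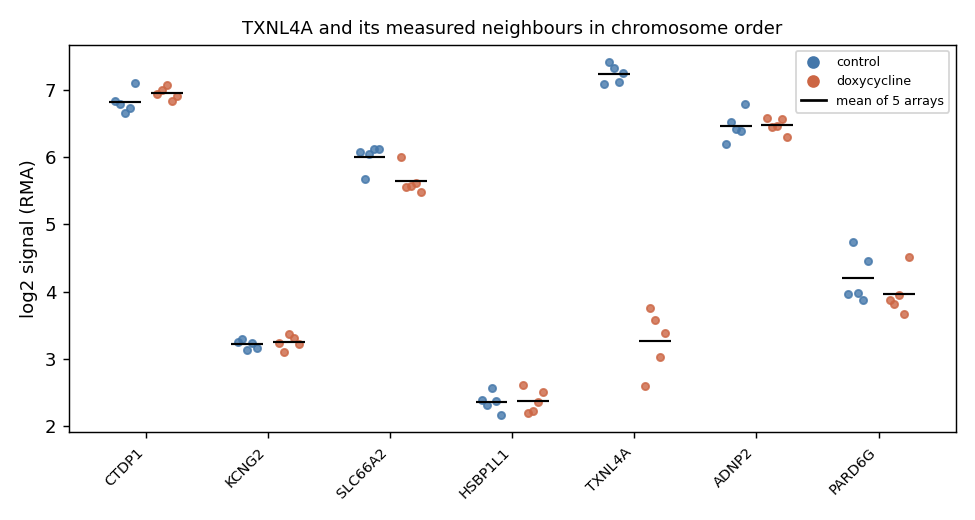
Log2 signal of TXNL4A and its 6 measured neighbours, in chromosome order, on each control and doxycycline array with group means. TXNL4A is separated between the groups, and the values of each of the 6 neighbours overlap.

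The promoter windows of TXNL4A are shown with those of its partner CD2BP2, which rose, and of SNRPC, in which 2 motif matches overlap. CD2BP2 and SNRPC were chosen after the motif search, so their matches were known when they were picked. Each is the 250 bases before a RefSeq start on GRCh38.p14, written on the gene's strand, with the letters CACGTG (the E-box that MYC and MAX bind) and CCGGAAG (a core of ETS-type factors) in capitals, on either strand. RefSeq lists 2 starts each for TXNL4A and CD2BP2.
TXNL4A, chr18:79988564-79988813, minus strand: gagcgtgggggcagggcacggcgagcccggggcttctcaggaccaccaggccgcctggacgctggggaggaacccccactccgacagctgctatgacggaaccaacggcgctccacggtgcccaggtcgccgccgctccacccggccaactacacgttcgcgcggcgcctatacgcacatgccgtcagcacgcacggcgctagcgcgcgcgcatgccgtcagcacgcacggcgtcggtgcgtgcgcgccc
TXNL4A, chr18:80033937-80034186, minus strand: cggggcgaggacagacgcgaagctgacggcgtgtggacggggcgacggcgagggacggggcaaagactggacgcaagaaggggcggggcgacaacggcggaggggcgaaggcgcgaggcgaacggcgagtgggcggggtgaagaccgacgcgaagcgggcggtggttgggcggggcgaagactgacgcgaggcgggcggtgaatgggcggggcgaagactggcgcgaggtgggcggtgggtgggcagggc
CD2BP2, chr16:30354935-30355184, minus strand: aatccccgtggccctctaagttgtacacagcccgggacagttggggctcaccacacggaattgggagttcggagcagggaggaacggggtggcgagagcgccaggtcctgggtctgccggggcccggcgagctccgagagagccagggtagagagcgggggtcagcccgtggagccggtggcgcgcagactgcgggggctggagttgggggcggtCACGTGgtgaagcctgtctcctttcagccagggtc
CD2BP2, chr16:30355309-30355558, minus strand: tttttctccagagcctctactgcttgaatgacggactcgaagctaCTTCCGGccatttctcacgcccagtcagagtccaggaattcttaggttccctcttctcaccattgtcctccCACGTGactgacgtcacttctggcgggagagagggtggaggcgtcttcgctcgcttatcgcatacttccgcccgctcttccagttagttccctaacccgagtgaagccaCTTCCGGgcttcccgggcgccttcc
SNRPC, chr6:34757255-34757504, plus strand: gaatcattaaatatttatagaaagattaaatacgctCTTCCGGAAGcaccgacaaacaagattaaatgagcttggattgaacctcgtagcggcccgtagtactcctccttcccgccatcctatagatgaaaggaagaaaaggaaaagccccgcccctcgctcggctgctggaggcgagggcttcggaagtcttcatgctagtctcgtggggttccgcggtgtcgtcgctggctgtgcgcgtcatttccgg

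Neither motif stood in the TXNL4A windows, whose GC content was 73.2% and 74.4%. Both CD2BP2 windows held CACGTG, beginning 35 and 134 bases before the respective start. In SNRPC the 2 matches of CCGGAAG are on opposite strands and overlap, 214 and 211 bases before the start. Windows were found for 56 of the 65 member genes, 73 windows in all. CACGTG stood in at least 1 window of 4 of these 56 genes (7.14%), against 9.7% of the 14129 measured genes with a window. The 4 were CD2BP2, EFTUD2, SF3B1 and LSMEM2. None of the 28 genes called lower with a window held it. CCGGAAG stood in windows of 24 of the 56 genes (42.9%), against 14.1% of measured genes, and in 10 of the 28 called lower, 2 of the 4 called higher and 12 of the 24 not called. These are counts of letters in short windows and do not show binding.

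All 7 measured Sm genes, whose proteins form the ring around U1, U2, U4 and U5 RNA, fell, with a median log2 fold change of -0.42. The mean of the 7 was 8.20 to 8.36 on control and 7.67 to 7.78 on doxycycline arrays, without overlap. SNRPD1 had log2 signals of 8.13, 8.12, 7.87, 8.15 and 7.89 in control and 7.17, 6.95, 7.06, 6.99 and 6.97 with doxycycline. Each doxycycline array was lower than every control array, and the 2-fold difference of the means, 8.03 ± 0.14 against 7.03 ± 0.09 (SD, n = 5), had a limma adjusted p of 2.63e-07. For SNRPF the values were 7.93, 7.56, 7.83, 7.68 and 7.90 against 6.94, 6.85, 6.76, 6.81 and 6.74. This gene too was separated in full, with a log2 fold change of -0.96 ± 0.09 (SE, limma adjusted p = 5.56e-07).

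The other Sm genes fell by less. Their log2 fold changes were -0.50 for SNRPE, -0.42 for SNRPD2, -0.41 for SNRPG, -0.36 for SNRPD3 and -0.29 for SNRPB, and the groups overlapped for SNRPD2, SNRPG and SNRPB. The fall of SNRPB, which encodes the B and B' proteins, was the least secure (limma adjusted p = 0.0362). It missed the threshold after median centring (adjusted p = 0.0591), and without control array 1, 2, 3 or 5 or doxycycline array 2, 3 or 4 (adjusted p of 0.0575 to 0.094).

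All 6 measured genes of the Lsm ring, LSM3 to LSM8, also fell, with a median log2 fold change of -0.58. Their proteins hold the end of U6 RNA. The mean of the 6 was 7.04 to 7.18 on control and 6.35 to 6.58 on doxycycline arrays. LSM3 had log2 signals of 8.02, 8.04, 7.96, 8.07 and 7.64 in control and 6.86, 6.90, 7.24, 6.75 and 7.04 with doxycycline. The groups did not overlap, although control array 5 was lower than the other controls, and the log2 fold change was -0.99 ± 0.11 (SE, limma adjusted p = 3.72e-06). LSM4 went from 9.28, 9.22, 9.33, 9.04 and 9.18 to 8.64, 8.33, 8.26, 8.21 and 8.36. The highest doxycycline value, on array 1, stayed under the lowest control, with a log2 fold change of -0.85 ± 0.09 (SE, limma adjusted p = 3.93e-06).

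LSM5 was measured at 5.98, 6.34, 6.38, 6.37 and 5.97 in control and 5.82, 5.37, 5.37, 5.47 and 5.44 with doxycycline. Doxycycline array 1 came close to the control range, and the log2 fold change was -0.72 ± 0.12 (SE, limma adjusted p = 1.46e-04). LSM7, LSM8 and LSM6 fell by 0.43, 0.43 and 0.37, and the groups overlapped for LSM6. Over both rings, 64 of the 65 values on doxycycline arrays lay below the control mean of their gene. The exception was LSM6 on doxycycline array 5. LSM2 and SNRPN were not analysed here.

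**Figure D4:**
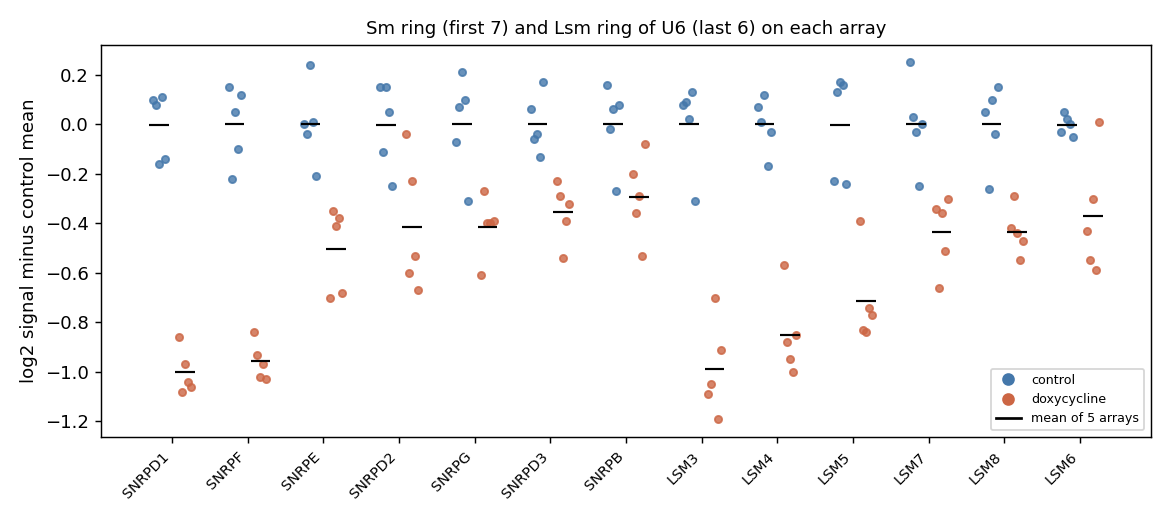
Log2 signal of the 7 Sm ring and 6 Lsm ring genes on each array, given as the difference from that gene's mean on the 5 control arrays, with group means as lines. Doxycycline means lie between -0.29 for SNRPB and -1 for SNRPD1, and 64 of 65 doxycycline values are below 0.

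LSM1, which takes the place of LSM8 in the cytoplasmic ring that promotes mRNA decapping, went the other way. Its log2 signal was 6.45, 6.44, 6.56, 6.29 and 6.34 in control and 6.66, 6.61, 6.60, 6.58 and 6.70 with doxycycline. The ranges were adjacent without overlap, and the log2 fold change was 0.21 ± 0.08 (SE, limma adjusted p = 0.0412). The call was lost with array weights (adjusted p = 0.0689) and without any single array other than control array 3 or doxycycline array 4 (adjusted p of 0.056 to 0.0955). Among the remaining LSM genes LSM11, which belongs to the U7 particle that processes histone mRNA, fell by 0.44 (adjusted p = 0.00261). Its U7 partner LSM10 (0.22), the P-body proteins LSM14A (-0.17) and LSM14B (-0.15), and LSM12 (-0.11) were not called.

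Of the 4 measured U1 genes 3 fell and 1 rose. PRPF39, a U1-associated factor, had log2 signals of 4.81, 4.46, 4.69, 4.68 and 4.75 in control and 3.92, 3.95, 4.54, 3.61 and 3.93 with doxycycline. Doxycycline array 3 reached into the control range, and the log2 fold change was -0.69 ± 0.14 (SE, limma adjusted p = 9.95e-04). SNRPC, a U1 protein that helps it hold the start of the intron, had 6.38, 6.20, 6.22, 5.80 and 6.40 against 5.37, 5.54, 5.66, 5.31 and 5.79. Its groups were separated by 0.01 at the nearest, with a log2 fold change of -0.67 ± 0.12 (SE, limma adjusted p = 5.33e-04). SNRPA, which binds a stem-loop of U1 RNA, fell by 0.34 (adjusted p = 0.0132) with overlapping groups.

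PRPF40B, a U1-associated protein, had the largest rise among the members that passed. It was measured at 5.94, 6.13, 6.31, 6.27 and 6.11 in control and 6.53, 6.44, 6.70, 6.64 and 6.55 with doxycycline. Each doxycycline value was above every control value, and the log2 fold change was 0.42 ± 0.09 (SE, limma adjusted p = 0.00155).

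Of the 14 probe sets of U2 and 3' splice site genes, 5 fell and 9 were not called. Both probe sets of U2AF1, which reads the AG at the end of the intron, fell. One was at 8.48, 8.65, 8.35, 8.31 and 8.38 in control and 7.64, 7.97, 7.64, 7.68 and 8.01 with doxycycline. The other was at 8.92, 8.75, 8.72, 8.56 and 8.79 in control and 8.40, 8.14, 8.07, 8.08 and 8.18 with doxycycline. Neither overlapped between the groups, and the falls of 0.64 ± 0.10 and 0.58 ± 0.09 (SE, limma adjusted p of 1.27e-04 and 1.33e-04) were alike. U2AF2, its partner on the polypyrimidine tract, had a log2 fold change of -0.02 (95% interval -0.22 to 0.19) with no settled sign. The U2 protein gene SNRPB2 fell by 0.40 (adjusted p = 0.00389) and SNRPA1 did not pass (-0.09). In SF3a, SF3A3 fell by 0.34 (adjusted p = 0.00131) and SF3A2 by 0.25 (adjusted p = 0.0215), the latter lost without control array 5 (adjusted p = 0.0566). SF3A1 was at -0.19 (adjusted p = 0.115) and was called without doxycycline array 1 (adjusted p = 0.0294). None of the 6 SF3B-named genes was called by limma, and 0 of the 6 had an unadjusted p under 0.05. SF3B1, the branch-site protein that is often mutated in uveal melanoma, had a log2 fold change of 0.08 (95% interval -0.11 to 0.27), and SF3B2 to SF3B6 ranged from -0.17 to 0.13.

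SR proteins, which bind exonic enhancers and guide splice site choice, changed in both directions, 6 lower and 2 higher of 11 measured. SRSF1 had log2 signals of 10.66, 10.57, 10.69, 10.70 and 10.65 in control and 10.06, 10.29, 10.15, 10.26 and 10.22 with doxycycline. The groups were well apart for the small spread of this gene, at -0.46 ± 0.08 (SE, limma adjusted p = 1.80e-04). SRSF3 (-0.42), SRSF6 (-0.34), SRSF8 (-0.28) and SRSF7 (-0.28) fell as well. SRSF10 fell by 0.32 (adjusted p = 0.0399), but doxycycline array 1 was far below the others, and without it the change was -0.207 (adjusted p = 0.0553). Leaving out control array 1, 2, 3 or 5 or doxycycline array 3 or 5 also ended that call, at adjusted p of 0.059 to 0.0833, and so did median centring (adjusted p = 0.0614).

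SRSF9 and SRSF5 rose. SRSF9 was at 7.87, 7.68, 7.91, 7.54 and 7.93 in control and 8.33, 8.20, 8.15, 8.21 and 8.11 with doxycycline. All doxycycline arrays were above the controls, with a log2 fold change of 0.41 ± 0.09 (SE, limma adjusted p = 0.00225). SRSF5 was at 10.46, 10.41, 10.52, 10.56 and 10.52 in control and 10.79, 10.69, 10.84, 10.87 and 10.81 with doxycycline. Here too the groups were separate, with a log2 fold change of 0.31 ± 0.07 (SE, limma adjusted p = 0.00366). SRSF4 (0.15), SRSF11 (0.00) and SRSF12 (0.20) were not called, and SRSF2 was not analysed here.

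Of the factors of later steps, PRPF19, the ubiquitin ligase of the PRP19 complex, fell by 0.45 (adjusted p = 3.91e-04), and PRPF18, which acts in exon ligation, was at 0.01 (95% interval -0.30 to 0.32). Of the genes taken by name only, LSMEM1 was at 0.49 (adjusted p = 0.0608) with overlapping groups, LSMEM2 at 0.05, and the pseudogene SNRPD2P2 was dim in both groups. LSMEM1 passed with median centring, the other variance model, array weights and the replicate block (limma adjusted p of 0.0105 to 0.0484). It also passed without control array 1 or 4 or doxycycline array 2 or 5 (adjusted p of 0.0174 to 0.0479). Without LSMEM1, LSMEM2 and SNRPD2P2 the median log2 fold change of the members was -0.248. The counts of 32 and 5 were the same because none of the 3 was called in the main test.

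**Figure D5:**
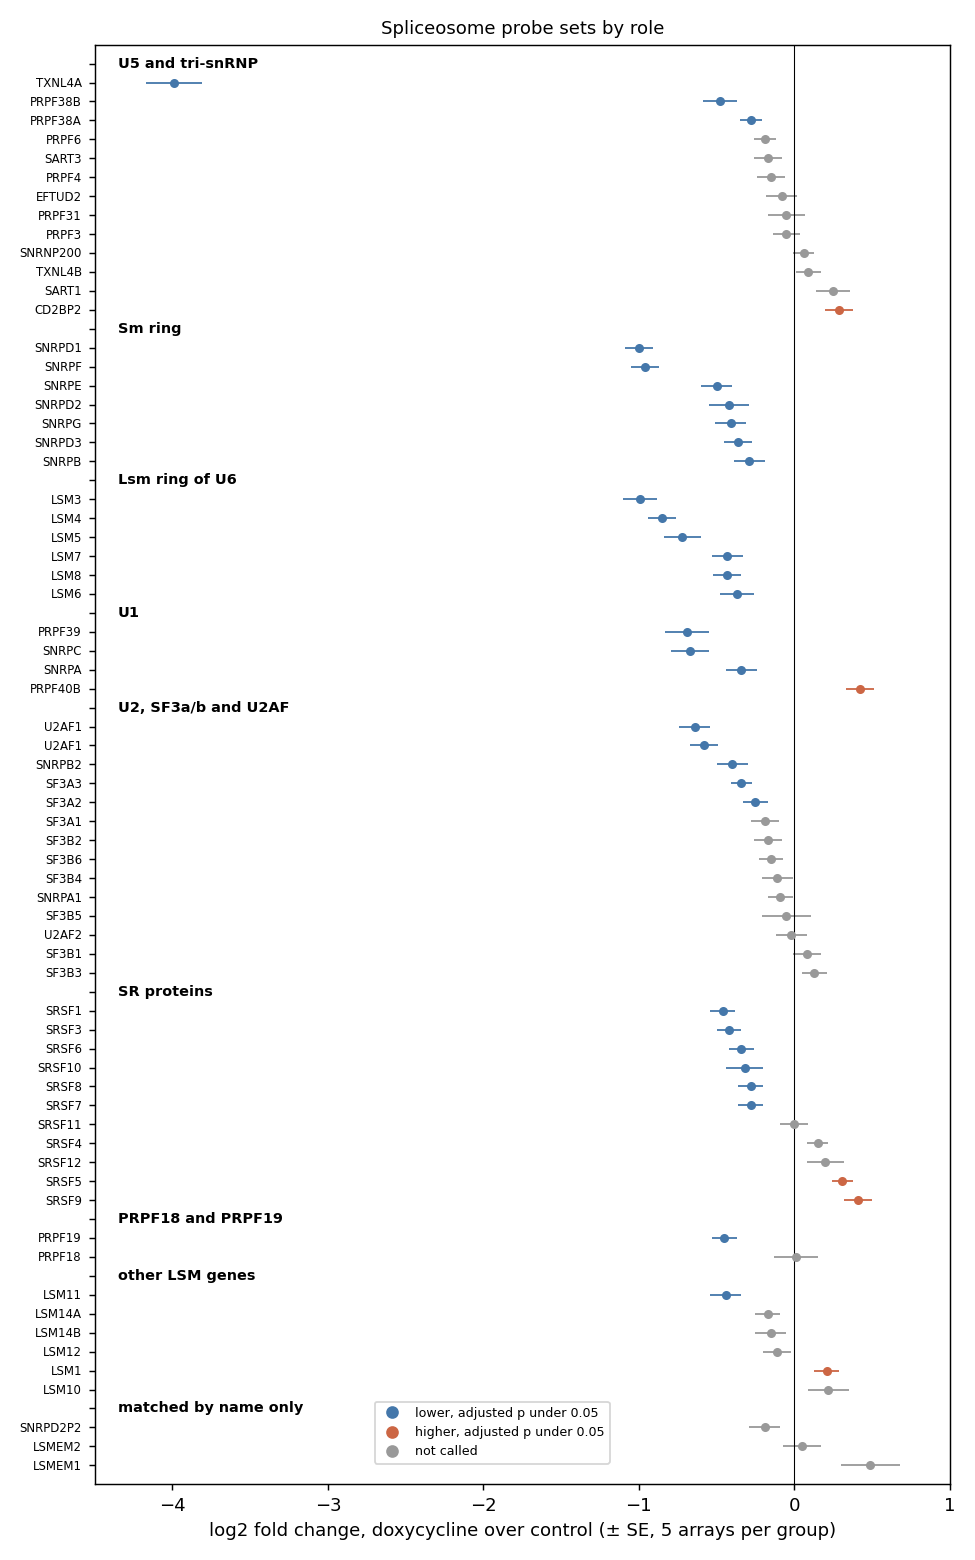
Log2 fold change of doxycycline over control for each of the 66 probe sets, ordered by role, with bars of ± SE from 5 arrays per group. All points of the Sm and Lsm rings are called lower, most U5 and SF3B points other than TXNL4A lie near 0, and the SR proteins lie on both sides.

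Outside the members, 158 other genes of the spliceosome and of splicing control were measured from a list of 180. Of these 45 fell (28.5%) and 15 rose (9.49%), with a median log2 fold change of -0.04. The share that fell thus lay between that of all probe sets, 17.2%, and that of the members, 48.5%. For the share that rose, the value over all probe sets was 20.9% and that of the members 7.58%. The count of 15 that rose moved in both directions, to 9 without doxycycline array 3, 21 without doxycycline array 1 and 24 with array weights.

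Among 22 other snRNP genes 6 fell and 3 rose. PPIH, a cyclophilin of the tri-snRNP (-0.70 ± 0.09), PHF5A, a small SF3b subunit (-0.65 ± 0.10), and SNRNP48 of the minor spliceosome (-0.56 ± 0.10) fell most (log2 fold change ± SE, n = 5 per group). SNRNP25 (0.40) and SNRNP35 (0.28), both of the minor U11/U12 particle, rose, as did LUC7L (0.28), whose call was lost without control array 2 or 3 or doxycycline array 2, 3, 4 or 5 (adjusted p of 0.0632 to 0.0925). Of 35 factors of the activated and catalytic steps 12 fell and none rose at a limma adjusted p under 0.05 (1 with a higher level had an unadjusted p under that value), with BUD31 (-0.66 ± 0.11), the PRPF19 partner PLRG1 (-0.64 ± 0.08) and PQBP1 (-0.61 ± 0.12) in front. In the minor spliceosome list of 7 genes PDCD7 fell (-0.34) and RNPC3 rose (0.25), the latter lost without control array 2, 3 or 4 or doxycycline array 3 or 4 (adjusted p of 0.0687 to 0.098).

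Exon junction and mRNA export genes fell in 6 of 10 cases, led by DDX39A (-0.81 ± 0.14), ALYREF (-0.66 ± 0.08) and RBM8A (-0.46 ± 0.08). A list of 19 genes of snRNP assembly and related steps included the SMN pathway, which loads Sm rings on snRNAs. In it 3 genes fell, GEMIN4 (-1.10 ± 0.12), GEMIN8 (-0.77 ± 0.09) and GEMIN2 (-0.37 ± 0.10), where 17.2% of all probe sets were called lower. The methylosome subunit WDR77 (0.32) and the snRNP import adaptor SNUPN (0.22) rose. These rises were lost without single arrays, WDR77 without control array 3 (adjusted p = 0.0504) and SNUPN without control array 1 or doxycycline array 3 (adjusted p of 0.0651 to 0.0694). SMN1 and SMN2 were not analysed here.

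Of 19 genes of SR protein kinases and relatives 3 fell and 3 rose, no larger shares than among all probe sets (17.2% lower and 20.9% higher). SRPK1, a kinase of SR proteins (-0.56 ± 0.08), their import receptor TNPO3 (-0.35 ± 0.07) and the SR-like TRA2B (-0.33 ± 0.08) fell. The nuclear kinase CLK4 (0.62 ± 0.11), SCAF1 (0.41 ± 0.10) and SCAF8 (0.22) rose, SCAF8 with a call lost without control array 1, 2, 3 or 5 or doxycycline array 1, 3 or 5 (adjusted p of 0.071 to 0.108). The hnRNP genes, whose proteins coat pre-mRNA, fell in 10 of 23 cases, with SYNCRIP (-1.26 ± 0.10), PTBP3 (-0.84 ± 0.08) and HNRNPF (-0.71 ± 0.09) in front, and HNRNPL (0.38) and HNRNPH2 (0.37) rose.

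Other splicing regulators were even, with 4 lower and 4 higher of 23, near the shares of all probe sets called (17.2% lower and 20.9% higher). KHDRBS3, an RNA-binding protein of the STAR family, rose by 1.41 ± 0.13 log2 units (SE, limma adjusted p = 7.64e-07), more than any member. PSPC1 (0.29), TIA1 (0.32) and RBM4 (0.26) rose, while ESRP1 (-0.44, near background), KHDRBS1 (-0.24), NONO (-0.24) and SFPQ (-0.23) fell. Of these 8 calls 5 were borderline, and for 4 of them leaving out any 1 of 5 or 6 different arrays ended the call. TIA1 lost it without control array 1, 2 or 3 or doxycycline array 2, 3 or 4 (adjusted p of 0.0607 to 0.0854) and RBM4 without control array 1, 3 or 5 or doxycycline array 2, 3 or 5 (adjusted p of 0.0627 to 0.0866). KHDRBS1 lost it without control array 3 or 4 or doxycycline array 2, 4 or 5 (adjusted p of 0.0512 to 0.0631), SFPQ without control array 3, 4 or 5 or doxycycline array 2 or 5 (adjusted p of 0.0554 to 0.0785), and NONO without control array 2 (adjusted p = 0.0586).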

How the data were processed

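Biotin-labelled total RNA was hybridised to Clariom S human HT arrays. The deposited values are log2 expression values per probe set, made by the authors with RMA (background correction, quantile normalization, probe summary), per the submitters' processing notes. No source used here gives the software version or filters. RMA makes arrays alike in distribution and hides any change in total RNA per cell. The platform table gave 17511 probe sets 1 symbol each and left 1058 unnamed here. Groups came from the sample titles. The labels call the samples biological replicas without saying whether they were separate cultures, and p-values therefore reflect a spread among samples that may be technical only.

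All 18569 probe sets entered 1 linear model in limma 3.58.1 (R 4.3.3; lmFit, then eBayes), with group as the only term, two-sided, with Benjamini-Hochberg adjustment over all, and called at an adjusted p under 0.05. The fit was tested on simulated data. The members and lists were chosen with earlier results of these data known. Array values were given for TXNL4A, TXNL4B and up to 8 other called genes with the highest and 8 with the lowest fold change. U2AF1 was among the latter with both its probe sets, and SRSF1 was added after its values were seen. Of other lists up to 3 called genes, and every called gene where 5 or fewer were called in a direction, were named. Tri-snRNP genes of the other snRNP list were named in addition, called or not. CD2BP2 and SNRPC windows were chosen after the motif search. Promoters came from RefSeq (GRCh38.p14). Near-identical copies can share hybridisation. Alternatives were filters on dim probe sets, scaling, the variance model, array weights, a replicate block, thresholds and leaving out each array.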

Additional observations from a re-analysis of the deposited data

Results flagged for a closer look

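Among 132 groups of 5 values (66 probe sets in each treatment group), 9 held 1 array whose gap to its nearest neighbour took more than 0.71 of the group's range, where chance flags about 5%. Doxycycline array 1 was the outlying array in 5 of the 9. It was high for LSM5 (5.82, next value 5.47), SNRPA (8.17, next 7.83) and SF3A1 (9.50, next 9.26), and low for SRSF10 (8.36, next 8.85) and SART3 (7.06, next 7.38). Control array 5 was low for LSM3 (7.64, next 7.96) and SRSF11 (8.46, next 8.68) and high for SRSF6 (9.27, next 9.06). Doxycycline array 5 was low for SF3B3 (9.44, next 9.66). The median signal of the 66 probe sets was 7.89 on doxycycline array 1 and 7.71 to 7.79 on the other doxycycline arrays. Without doxycycline array 1, 34 members were lower and 4 higher.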

How the results depend on the processing

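The count of members that fell (32) was 30 to 34 under both dim-signal filters, both scalings, the other variance model, array weights and the replicate block, and 29 to 34 leaving out 1 array. Ranges leaving out 1 array were 34 to 38 for members called, 4 to 5 higher, 6378 to 7237 for all probe sets called, 39 to 44 lower and 9 to 21 higher for other splicing genes, and -0.233 to -0.187 for the members' median. At an adjusted p under 0.01, 5252 of 18569 probe sets and 27 of 66 members were called. Of the members 24 were lower and 3 higher, and of the other splicing genes 35 were lower and 7 higher. At an adjusted p under 0.05 and a change of at least 1.5-fold, 3030 of 18569 probe sets and 9 of 66 members were called, a smaller share of the members than of all. Of these members 9 were lower and 0 higher (limma, where 5 pass without the size limit), and 14 other genes were lower and 2 higher. Lower calls of that size were 13.6% of the members and 8.54% of all probe sets. Other genes higher numbered 24 with array weights. Without the 3 genes taken by name only the members' median was -0.248. With the replicate block 35 members were called, LSM1 (adjusted p = 0.0899), SRSF10 (0.0557) and SF3A2 (0.0509) losing the call and LSMEM1 (0.0105) gaining it, and 9 other genes were higher. Array numbers did not pair the groups, since same-numbered arrays had correlations of deviations from -0.437 to -0.007. Values that turned sign were all uncalled, namely U2AF2 (0.0173, median centring), SRSF11 (-0.0148), KCNG2 (-0.0124) and HSBP1L1 (-0.0341) after another quantile normalization, and PRPF18 (-0.0582) and HSBP1L1 (-0.0684) with array weights. Leaving out 1 array also turned signs, with ranges of -0.147 to 0.0348 for SF3B5, -0.0947 to 0.105 for PRPF18, -0.0652 to 0.0312 for U2AF2, -0.0559 to 0.0466 for SRSF11, -0.0426 to 0.0656 for HSBP1L1, -0.0602 to 0.0856 for ADNP2, -0.00953 to 0.14 for LSMEM2 and -0.133 to 0.0339 for PRPF31. Of 37 called members 5 lost the call without some array, and the cause was not tested. Some uncalled members passed under other settings. SART1 passed without probe sets under the median (limma adjusted p = 0.049) and without control array 5 (0.0259). With the other variance model SRSF4 (0.0469) and SF3A1 (0.0439) passed, and without doxycycline array 1 SNRPD2P2 did (0.0372). Signal near background limits the fold change of TXNL4A.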
